A study of Mus musculus with 16 samples.

Results

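The comparison described here is that of 4 RNA-seq libraries from mouse embryonic fibroblasts, 2 labelled YAP2S OHT Y27 against 2 labelled YAP2S OHT, of 16 libraries in the series. They were taken by their labels alone, and all 4 were kept. All the groups were serum-starved fibroblasts carrying MycER, in which Myc is joined to the ligand-binding part of the oestrogen receptor and is active only when 4-hydroxytamoxifen (OHT, given at 400 nM) is present. The labels MycER_YAP2S add a YAP mutant that cannot be phosphorylated at serines through which the LATS kinases restrain it. Both groups compared were labelled as YAP2S cells given OHT, and differed by the ROCK inhibitor Y27632 (Y27, given at 50 µM). The groups set beside them are MycER without treatment, MycER Y27, YAP2S without treatment, YAP2S Y27, MycER OHT and MycER OHT Y27, with 2 libraries each. Whether replicates came from separate cultures is not given in the labels. The p-values therefore measure the spread between libraries, pooled over all 8 groups, which may be technical. The comparison asks which transcripts change when ROCK is inhibited in cells whose label gives them an active MycER and a mutant YAP.

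ROCK is a kinase that drives actomyosin contraction and keeps stress fibres in place. In fibroblasts, transcription factors of different families read this tension. YAP and TAZ enter the nucleus and bind TEAD factors at genes such as Ctgf, Cyr61 and Ankrd1, and the actin-sensing MRTF co-activators bind SRF at genes of the cytoskeleton. LATS phosphorylation holds YAP in the cytoplasm, and the mutant is known to escape it.

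The population given by the label was looked at first. Bex1, Wnt7a and Fgfbp1 were picked with earlier results of these data known, as genes that stood apart between the populations. Their levels describe these libraries and are no independent check of the label. Bex1 was at 1.01 and 0.470 RPKM (reads per kilobase per mega reads) in the libraries labelled YAP2S OHT and at 0.123 and 0.566 in those labelled YAP2S OHT Y27. It was at 16 and 16.1 in the untreated YAP2S libraries and at 0 and 0.490 in the untreated MycER libraries. The 4 libraries were thus all far below the population they are named for. Wnt7a, which encodes a Wnt ligand, was at 0.175, 0.288, 0.571 and 0.463 RPKM in the same 4 libraries and at 8.52 and 7.45 in untreated YAP2S. Fgfbp1, a secreted carrier of fibroblast growth factors, was at 0.617, 0.351, 0.184 and 0.423 against 12.6 and 10.8.

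The same was seen over 131 genes that separated YAP2S from MycER both with and without Y27 in libraries outside the comparison. Each library was placed on a scale where the MycER groups sit at 0 and the YAP2S groups at 1. Both libraries labelled YAP2S OHT had a median position of 0.14, and both labelled YAP2S OHT Y27 had one of -0.06. The libraries labelled MycER OHT were at 0.96 and 0.94. Per library, 82.4% to 95.4% of the 131 genes were nearer the MycER level in the 4 libraries compared. The measured populations therefore go against these labels, and every statement below is about the libraries so labelled. Both groups sat on the MycER side of the scale, at 0.14 without and -0.06 with Y27, and whether population has a part in this difference was not tested.

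**Figure D1:**
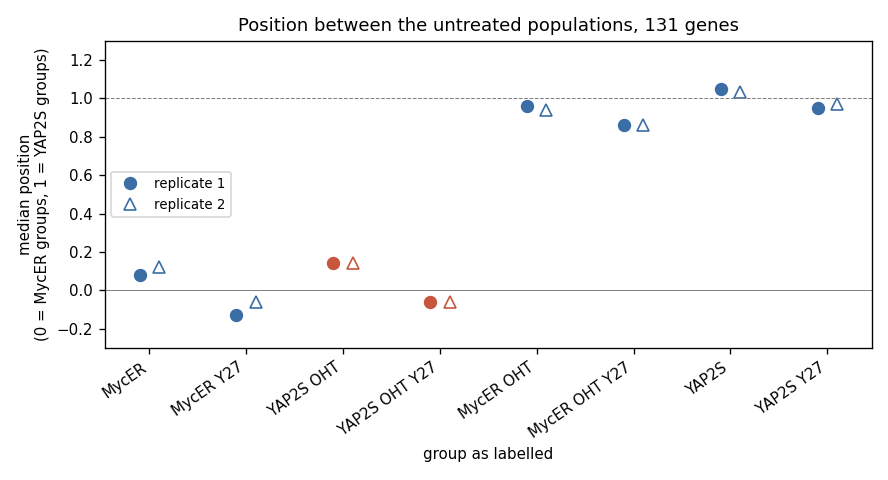
Median position of each library over 131 genes, on a scale where 0 is the level of the MycER groups and 1 that of the YAP2S groups, by labelled group (horizontal axis). Circles and triangles are replicates 1 and 2, and the libraries compared here, in red, sit between -0.06 and 0.14.

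Depth was alike in the 4 libraries, at 12.58 and 9.82 M (mega) reads in genes for YAP2S OHT and 9.37 and 10.19 M for YAP2S OHT Y27, against a range of 1.76 to 15.71 M over all 16. The shallowest, at 1.76 M, was replicate 1 of MycER. There 1 read per kilobase is 0.567 RPKM, against 0.141 in replicate 2 of MycER, so low values of this library are uncertain. The highest RPKM of any gene was 141 to 175 in these 4 libraries and 118.8 to 662.6 over the series, and was lowest in the deepest libraries. Whether this compresses changes of the most abundant genes was not tested. The replicates labelled YAP2S OHT agreed closely. Their log2 difference had an SD of 0.194 over 13028 genes, and 77 genes differed by more than 1. The replicates labelled YAP2S OHT Y27 agreed least of the 8 pairs, with an SD of 0.470 against 0.173 to 0.433 in the others, and 543 genes, 4.17%, differed by more than 1.

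The difference between these replicates moved with the GC content of the transcripts. Replicate 1 of YAP2S OHT Y27 had a median log2 difference from the mean of YAP2S OHT of -0.28 in the lowest GC quintile and 0.13 in the highest. In replicate 2 these medians were 0.01 and -0.02. In MycER Y27 against MycER they were -0.07 and 0.05. Replicates of other groups also differed with GC, with a correlation across genes of -0.40 in MycER OHT, 0.27 in MycER and 0.30 in MycER Y27, against -0.38 in YAP2S OHT Y27 and -0.14 in YAP2S OHT. Of the 2 replicates of YAP2S OHT Y27, replicate 1 was thus the one whose difference from YAP2S OHT moved with GC, and its part in any single gene was not tested. For this reason results are given with and without replicate 1 where the call depends on it.

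**Figure D2:**
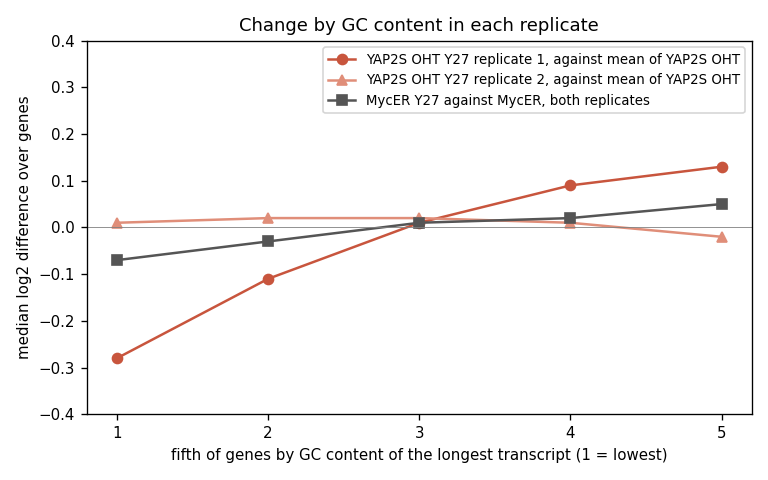
Median log2 difference over genes (vertical axis) in each quintile of transcript GC content (horizontal axis), for replicates 1 and 2 of YAP2S OHT Y27 against the mean of YAP2S OHT and for MycER Y27 against MycER. Replicate 1 runs from -0.28 to 0.13, and replicate 2 stays between -0.02 and 0.02.

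With Y27, 2348 of 13028 genes tested (18.0%) changed at an adjusted p under 0.05 in limma, 1142 higher (8.77%) and 1206 lower (9.26%). The counts given below for each gene list are to be read beside these shares. In 6985 genes (53.6%) the libraries of the 2 groups did not overlap. Of the genes called, 402 changed by more than 1 on the log2 scale, 195 higher and 207 lower. Changes are log2 differences of quantile-normalised RPKM + 1, with a standard error from the variance pooled over all 16 libraries, and levels are RPKM as deposited. The pooled variance also draws on pairs that agreed more closely than YAP2S OHT Y27, whose replicates had the largest SD (0.470). With only the 4 libraries of the comparison in the fit, which leaves fewer residual degrees of freedom, 106 genes were called. The count followed the libraries. It was 899 without replicate 1 of YAP2S OHT, 789 without replicate 2 of YAP2S OHT, 1421 without replicate 1 of YAP2S OHT Y27 and 5612 without its replicate 2, where the lone library of a group was taken to vary like the other groups. Between the fits without its replicate 1 and without its replicate 2, 1105 genes were called in the same direction and 12 in opposite ones. These 2 fits share both YAP2S OHT libraries, so part of their agreement in direction is built in. With GC correction 2944 genes were called, and 2218 of the 2348 were among them in the same direction.

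The genes with the largest falls are given first. Epha4, a receptor for ephrins, was at 21.4 and 22.6 RPKM in YAP2S OHT and at 0.811 and 1.06 with Y27, the largest fall among the genes named (log2 change -3.53 ± 0.16, adjusted p = 1.52e-07 by limma). Edn1, which encodes the vasoconstrictor endothelin-1, was at 21.8 and 18.9 and fell to 1.05 and 1.0 (-3.39 ± 0.13). In both genes the Y27 replicates lay close together. Adra1d, the alpha-1D adrenergic receptor, went from 11.8 and 10.5 to 0.891 and 0.574 (-2.84 ± 0.24). Fam150a, which encodes a small secreted ligand of the receptor kinases ALK and LTK, went from 30.8 and 32.1 to 1.99 and 2.74 (-3.26 ± 0.17).

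Gadd45g, a stress-induced inhibitor of growth, was at 81.3 and 91.4 RPKM and fell to 7.50 and 7.99, a change of -3.40 ± 0.18 (adjusted p = 3.23e-07). Ptx3, a pentraxin of innate immunity, was at 13.2 and 12.7 and fell to 0.499 and 0.204 (-3.34 ± 0.16). Tnfaip3, which restrains NF-kB signalling, fell from 34.0 and 31.1 to 5.99 and 4.74 (-2.36 ± 0.10). The Y27 replicates lay closest in Gadd45g and furthest apart, relative to their level, in Ptx3. Like all of the 15 lowest and 15 highest genes, these were chosen among genes whose groups do not overlap.

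The other genes among the 15 lowest were of several kinds. Fos, a subunit of AP-1, went from 13.5 and 13.9 RPKM to 1.38 and 1.22 (-2.68 ± 0.20). Foxf1, a forkhead factor of mesenchyme, went from 15.6 and 16.8 to 1.61 and 1.94 (-2.64 ± 0.21). The aggrecanase gene Adamts5 fell from 34.9 and 35.3 to 5.75 and 4.94 (-2.47 ± 0.10), and Cemip, needed for the breakdown of hyaluronan, from 10.7 and 11.5 to 1.20 and 0.978 (-2.56 ± 0.15). These 4 genes were low in both Y27 libraries alike. Plscr2, Dhrs3 and Fam46b, a scramblase, a retinaldehyde reductase and a poly(A) polymerase, fell by 2.51, 2.40 and 2.30 on the log2 scale.

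The genes with the largest rises follow. Grem1, a secreted antagonist of bone morphogenetic proteins (BMPs), was at 0.921 and 1.12 RPKM in YAP2S OHT and at 23.1 and 24.6 with Y27, the largest rise among the named genes (log2 change 3.58 ± 0.24, adjusted p = 2.76e-06). Prrx1, a homeobox factor of limb and craniofacial mesenchyme, rose from 2.77 and 2.46 to 20.5 and 14.4 (2.30 ± 0.18). Fam180a rose from 1.3 and 0.999 to 11.7 and 17.1 (2.77 ± 0.21). Klf4, a zinc finger factor tied to growth arrest, rose from 12.3 and 9.86 to 56.0 and 48.9 (2.17 ± 0.15). The Y27 replicates differed more in Prrx1 and Fam180a than in Grem1.

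A neighbouring pair of decoy receptors for the death ligand TRAIL, Tnfrsf22 and Tnfrsf23, rose together. Tnfrsf22 went from 2.37 and 2.51 RPKM to 26.6 and 15.5 (2.61 ± 0.22), and Tnfrsf23 from 6.54 and 4.73 to 31.6 and 26.8 (2.19 ± 0.13). They resemble each other in sequence, so reads may be shared between them. Mc5r, a melanocortin receptor, rose from 4.10 and 2.98 to 22.1 and 14.5 (2.05 ± 0.24). Rgcc, a regulator of the cell cycle, went from 5.65 and 5.79 to 25.9 and 25.1 (1.96 ± 0.19), and Gja1, which encodes the gap junction protein connexin 43, from 19.9 and 17.6 to 79.4 and 54.1 (1.83 ± 0.23). Of the Y27 libraries replicate 1 was the higher one in each of these genes.

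In 2 of the leading genes the size of the rise depended on replicate 1. Zfp703, a transcriptional repressor, was at 7.26 and 6.16 RPKM in YAP2S OHT and at 45.8 and 16 with Y27 (1.88 ± 0.37), and at 1.10 without replicate 1. Galnt15, an enzyme of mucin-type glycosylation, was at 1.43 and 1.39 and rose to 17.8 and 6.74 (2.31 ± 0.34), or by 1.67 without replicate 1. The fit without replicate 1 has only 1 library of YAP2S OHT Y27, so whether these calls hold cannot be told from it. With only the libraries of the comparison in the fit neither gene passed (adjusted p = 0.194 and 0.113 by limma). Nor did the leading genes Tnfrsf22, Mc5r, Gja1, Dusp4 and Plscr2. The remaining leaders were Plcg2 (a phospholipase C), Dusp4 (a phosphatase of ERK) and Nrep, with rises of 2.12, 1.95 and 1.81.

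**Figure D3:**
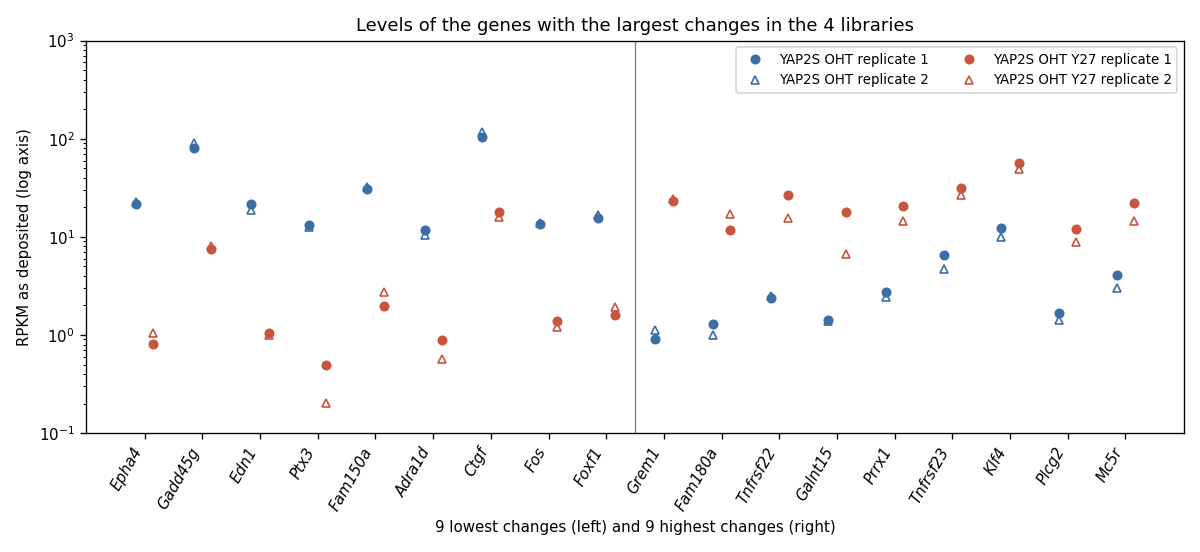
RPKM as deposited (vertical log axis) of the 9 genes with the lowest and the 9 with the highest log2 changes among those of at least 10 RPKM that passed the threshold and were chosen for groups that do not overlap, in each replicate of YAP2S OHT (blue) and YAP2S OHT Y27 (red). The replicates with Y27 lie apart in Galnt15 (17.8 and 6.74) and close in Grem1 (23.1 and 24.6).

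Among known targets of YAP and TEAD most of the changes were falls. Of 28 tested outside the CCN family, 14 fell and 2 rose, with a median log2 change of -0.53 against -0.01 over all genes. Ankrd1, a nuclear ankyrin repeat protein, was at 90.7 and 98.1 RPKM in YAP2S OHT and at 17.0 and 27.6 with Y27 (-2.19 ± 0.14, adjusted p = 2.2e-06). Amotl2, an angiomotin that binds and restrains YAP, went from 88.4 and 101 to 20.3 and 20.1 (-2.28 ± 0.06). Both were low in the Y27 libraries, and the Y27 replicates lay apart in Ankrd1 and together in Amotl2. Thbs1, the matrix protein thrombospondin-1, went from 141 and 172 to 76.8 and 71.7 (-1.33 ± 0.07), and the kinase gene Lats2, itself a YAP target, from 42.4 and 43.9 to 20.5 and 20.3 (-1.01 ± 0.06). The list's median was -0.37 in replicate 1 and -0.62 in replicate 2.

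Of 6 CCN matricellular genes 4 fell and 0 rose. Ctgf was at 103 and 118 RPKM and fell to 17.8 and 16 (-2.83 ± 0.12, adjusted p = 9.23e-08), which is 7.11-fold lower. Cyr61 fell from 136 and 163 to 51.7 and 58.2 (-1.64 ± 0.06), and Wisp1 and Wisp2 by 1.21 and 1.14 on the log2 scale. Cyr61 lay just under the highest RPKM of any gene in the YAP2S OHT libraries, 141 and 172.1, and Thbs1, given above, was at it. That highest value was lowest in the deepest libraries, as stated above. Whether the falls of these 2 genes are compressed was not tested. Among 21 Hippo kinases and YAP, TAZ and TEAD factors, 5 fell and 1 rose. Vgll3, a co-factor of TEAD, went from 72.1 and 79.1 to 25.0 and 28.1 (-1.52 ± 0.06), and Tead3 from 23.6 and 21.1 to 12.9 and 7.45 (-1.04 ± 0.18). Yap1 was at 23.0 and 20.8 without Y27 and at 30.6 and 22.5 with it (0.31 ± 0.16, adjusted p = 0.191). Without replicate 2 of YAP2S OHT Y27 it passed, at 0.58 (adjusted p = 0.0074 by limma), and whether reads of the mutant count under this gene is not stated.

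The promoters of 3 YAP targets that fell and of Srf are shown because they carry the motifs of the factors that sense tension. Each sequence is the 250 bases before the transcription start from RefSeq on build GRCm38.p6, written 5′ to 3′ on the gene's strand. Capitals mark the TEAD motif, GGAATG or its reverse complement CATTCC, in the first 3, and the CArG box bound by SRF in the last. They lie at chr3:145649986-145650235 (minus strand) for Cyr61, chr19:36119845-36120094 (minus) for Ankrd1, chr9:102717554-102717803 (plus) for Amotl2 and chr17:46556163-46556412 (minus) for Srf.
Cyr61: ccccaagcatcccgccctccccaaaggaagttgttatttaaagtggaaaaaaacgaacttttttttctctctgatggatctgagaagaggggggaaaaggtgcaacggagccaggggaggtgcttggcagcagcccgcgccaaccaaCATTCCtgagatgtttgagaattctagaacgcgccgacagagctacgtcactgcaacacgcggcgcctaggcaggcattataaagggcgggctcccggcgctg
Ankrd1: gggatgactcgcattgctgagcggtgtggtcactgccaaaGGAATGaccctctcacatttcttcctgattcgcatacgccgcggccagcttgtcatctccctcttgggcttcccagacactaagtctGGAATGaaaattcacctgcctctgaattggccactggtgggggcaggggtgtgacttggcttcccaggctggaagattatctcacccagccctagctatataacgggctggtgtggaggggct
Amotl2: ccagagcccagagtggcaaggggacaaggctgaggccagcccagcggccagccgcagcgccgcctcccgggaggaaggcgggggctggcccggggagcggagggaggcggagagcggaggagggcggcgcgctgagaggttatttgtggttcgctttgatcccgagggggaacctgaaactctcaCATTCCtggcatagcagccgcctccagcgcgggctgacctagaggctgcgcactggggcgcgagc
Srf: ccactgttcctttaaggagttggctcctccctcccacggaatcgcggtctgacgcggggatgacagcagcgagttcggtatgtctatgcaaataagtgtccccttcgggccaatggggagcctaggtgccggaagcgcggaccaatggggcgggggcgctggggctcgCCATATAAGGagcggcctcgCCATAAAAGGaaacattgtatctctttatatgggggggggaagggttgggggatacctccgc

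Counted from the transcription start, the motif begins at -103 in Cyr61, at -210 and -123 in Ankrd1 and at -65 in Amotl2, and the CArG boxes of Srf begin at -82 and -62. On either strand of this window the TEAD motif was found in 8 of the 22 YAP targets and CCN genes that have an entry (36.4%), against 14.4% of 27025 genes. The TEAD motif was also found in 10 of 31 SRF and actin genes (32.3%). The CArG box was found in 8 of these 31 (25.8%), against 1.62% of all genes. Of the 15 genes that fell most 9 had an entry, and 1 of these held the TEAD motif, as did 2 of 10 among those that rose most. A match of letters describes the window and is not a test of binding.

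Among the SRF and actin genes too, most changes were falls. Of 35 tested, 14 fell and 1 rose, with a median of -0.21. On values as deposited 7 fell and 0 rose, beside 834 lower and 647 higher of all genes tested. Srf itself was at 40.1 and 37.5 RPKM and fell to 13.8 and 13.9 (-1.38 ± 0.14, adjusted p = 7.23e-05). Lmod1, a leiomodin that seeds actin filaments, fell from 5.16 and 5.22 to 0.568 and 0.672 (-1.97 ± 0.19), and Fhl2, a LIM protein that shuttles to the nucleus, from 58.4 and 65.0 to 32.3 and 39.1 (-0.76 ± 0.07). Both replicates of Y27 were low in each.

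Immediate early genes did not move as a group, with 3 of 22 higher, 4 lower and a median of 0.03. Beside Fos, Junb went from 76.0 and 79.4 RPKM to 48.6 and 58.0 (-0.56 ± 0.10). Among phosphatases and Sprouty proteins that restrain ERK, 7 of 16 rose and 3 fell. The list's median was 0.34 in replicate 1 and 0.26 in replicate 2 of YAP2S OHT Y27. Dusp10, a phosphatase of JNK and p38, rose from 15.2 and 13.5 to 32.2 and 40.6 (1.31 ± 0.11), and Dusp6 from 57.9 and 59.7 to 70.6 and 79.6 (0.42 ± 0.08), the latter not past the threshold on values as deposited (adjusted p = 0.0614 by limma). Dusp2 went the other way, from 4.62 and 4.59 to 1.32 and 1.27 (-1.33 ± 0.19). With the rise of Dusp4 given above, members of this group changed by more than 1 on the log2 scale in both directions.

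Genes of cytokines and chemokines and of TGF-beta signalling fell more often than they rose. Of 20 cytokine and chemokine genes, 10 fell and 1 rose, with a median of -0.55, and of 25 genes of TGF-beta signalling, 11 fell and 2 rose (median -0.43). Csf1, the growth factor of macrophages, fell from 89.7 and 101 RPKM to 34.1 and 32.2 (-1.58 ± 0.08). Lif, a cytokine of the interleukin-6 family, fell from 8.28 and 7.28 to 1.29 and 0.558 (-2.28 ± 0.20), and Nrg1, a ligand of ErbB receptors, from 11.1 and 9.24 to 2.69 and 2.48 (-1.66 ± 0.12). None of the 3 overlapped between groups, which held for 53.6% of all genes. Smad6, an inhibitor of BMP signalling, fell from 33.9 and 33.6 to 10.2 and 6.90 (-1.82 ± 0.16). Bmp4 and Ltbp2 fell by 0.96 and 0.67 on the log2 scale.

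Of 22 Wnt genes 3 rose and 3 fell, against 8.77% and 9.26% of all genes. Wnt5a, a ligand of non-canonical signalling, fell from 8.50 and 7.28 RPKM to 2.56 and 1.97 (-1.49 ± 0.14), and Rspo3, which amplifies Wnt signals, rose from 10.2 and 12.1 to 25.8 and 31.5 (1.29 ± 0.19). The receptor gene Fzd8 fell by 0.48, and did not pass without replicate 2 of YAP2S OHT (-0.47, adjusted p = 0.0516 by limma).

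Genes of the matrix and of adhesion moved in both directions. Of 26 collagen chains and matrix proteins, 4 rose and 6 fell. Col11a1, a fibrillar collagen chain, went from 16.3 and 13.8 RPKM to 7.01 and 6.05 (-1.07 ± 0.13), and Col8a1 from 27.5 and 26.9 to 11.3 and 17.2 (-0.89 ± 0.13). Fn1, which encodes fibronectin, rose from 79.6 and 90.4 to 132 and 103 (0.51 ± 0.10), and tenascin-C (Tnc) from 65.8 and 71.3 to 86.4 and 85.8 (0.39 ± 0.06). Neither held in every setting: Fn1 did not pass as deposited (adjusted p = 0.242) or without replicate 1 of YAP2S OHT (0.50, adjusted p = 0.0513), nor Tnc with voom (0.20, adjusted p = 0.119). Among 23 integrin and focal adhesion genes 4 rose and 4 fell. Itgb7 and Itga7, both integrin subunits, rose by 1.52 and 1.01, while Lims2, a LIM protein of focal adhesions, fell from 7.58 and 7.72 to 2.27 and 2.21 (-1.46 ± 0.15) and the scaffold Bcar1 by 0.62. The list medians of matrix and integrin genes were 0.19 and 0.32 in replicate 1 and -0.10 and -0.08 in replicate 2. Of 19 matrix proteases and inhibitors 6 fell and 1 rose. Adamts1, another metalloprotease, fell from 102 and 114 to 44.2 and 55.9 (-1.24 ± 0.09).

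Few genes that Myc is known to drive were called. Of 40 genes of ribosome assembly and rRNA processing 2 fell and 0 rose (median -0.01), and of 34 classical Myc targets 2 fell and 0 rose (median -0.02). Both counts were lower without replicate 1 of YAP2S OHT Y27 and higher without its replicate 2, as was the count over all genes. The median of the first list was -0.04 in replicate 1 and -0.03 in replicate 2. That of the second was -0.02 and -0.01, against -0.02 and 0.01 over all genes. The 2 that fell in the first list were Rrn3, a factor of RNA polymerase I, at 62.7 and 70.9 RPKM against 43.2 and 60.1 (-0.36 ± 0.10, adjusted p = 0.0313), and Wdr43, at 71.5 and 81.6 against 53.9 and 70.9 (-0.30 ± 0.09). Without replicate 1 of YAP2S OHT Y27 the changes were -0.17 and -0.14 and neither passed, with adjusted p values of 0.192 and 0.231 in limma, and neither passed as deposited (0.115 and 0.161) or without one or the other replicate of YAP2S OHT (0.0983 to 0.208). Heatr1, also of rRNA processing, was at 47.4, 47.9, 48.8 and 48.3 in the 4 libraries (0.09 ± 0.08), and Myc at 36.9, 33.0, 34.3 and 29.4 (-0.07 ± 0.13, adjusted p = 0.73). Of 29 enzymes of nucleotide synthesis and one-carbon metabolism, 6 fell and 0 rose. Rrm2, a subunit of ribonucleotide reductase, fell from 34.3 and 29.2 to 16.9 and 18.4 (-0.77 ± 0.12), and Ctps, a CTP synthetase, from 67.8 and 76.3 to 45.8 and 53 (-0.54 ± 0.07).

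For genes of DNA replication and of mitosis the Y27 replicates differed. Of 44 genes of DNA replication 7 fell and 0 rose, with a median of -0.33 in replicate 1 and -0.10 in replicate 2. Over all genes these medians were -0.02 and 0.01. With GC correction 15 of the 44 were lower, beside 1644 of all genes. Of 34 genes of G2 and mitosis 3 fell and 1 rose, and the medians were -0.46 and -0.04. The counts of falls in both lists were lower without replicate 1 and higher without replicate 2, as was the count over all genes. Cdc6, a loader of the replicative helicase, was at 21.6 and 19.2 RPKM in YAP2S OHT and at 8.27 and 13.3 with Y27 (-0.88 ± 0.18), and did not pass without replicate 1 of YAP2S OHT (-0.84, adjusted p = 0.0626 by limma). Ccna2, which encodes cyclin A2, was at 47.4 and 51.7 and at 26.1 and 43.0 (-0.51 ± 0.14, adjusted p = 0.0262), and without replicate 1 the change was -0.21 (adjusted p = 0.0771 by limma). Top2a, Ube2c, Ccne1, Ccne2 and Mcm5 likewise did not pass without replicate 1, at adjusted p values of 0.0598 to 0.301. These 5 and Ccna2 also did not pass without one or the other replicate of YAP2S OHT (0.0518 to 0.182). Of 23 genes of G1 cyclins and E2F factors 5 fell and 0 rose, with medians of -0.13 in replicate 1 and -0.15 in replicate 2. Ccnd1, cyclin D1, went from 47.5 and 49.8 to 36.2 and 36.9 (-0.36 ± 0.08), and did not pass without replicate 1 (adjusted p = 0.0637) or replicate 2 (0.0719) of YAP2S OHT.

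Among inhibitors of the cell cycle and genes of quiescence most changes were rises. Of 27 tested, 14 rose and 2 fell, with a median of 0.44, which was 0.51 in replicate 1 and 0.32 in replicate 2. Beside Rgcc, Btg1, an antiproliferative factor, rose from 20.2 and 18.9 RPKM to 42.2 and 39.7 (1.07 ± 0.09), and Sesn1, a sestrin that restrains mTORC1, from 18.8 and 17.4 to 31.9 and 30.1 (0.78 ± 0.09). Gadd45g, described above, is a member of this list that fell. Of 24 p53 targets 5 rose and 3 fell, among them the death receptor gene Fas, from 6.93 and 6.16 to 0.474 and 0.436 (-2.40 ± 0.23), and the kinase gene Plk2, from 103 and 118 to 53.4 and 79.1 (-0.88 ± 0.12), with an adjusted p of 0.0541 for Plk2 as deposited. Ddit4l, an inhibitor of mTORC1, rose from 0.204 and 0.187 to 9.64 and 4.83 (2.71 ± 0.29).

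Lysosome and autophagy genes rose in 16 of 32 and fell in 1, with a median of 0.28 that was close in replicate 1 (0.26) and replicate 2 (0.30). On values as deposited 5 rose and 0 fell, beside 647 higher and 834 lower of all genes tested. Gla, the lysosomal alpha-galactosidase, was at 12.5 and 13.0 RPKM and rose to 22.9 and 26.4 (0.90 ± 0.10, adjusted p = 8.1e-05), and Neu1, a sialidase, from 14.5 and 14.5 to 23.0 and 25.5 (0.72 ± 0.11). The autophagy receptor gene Sqstm1 went from 92.8 and 110 to 127 and 127 (0.37 ± 0.05), and did not pass as deposited (adjusted p = 0.31) or with voom (0.0698). Each was high in both Y27 libraries.

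Other metabolic and stress lists were near the background of all genes. Of 23 genes of cholesterol synthesis 3 fell and 0 rose, of 21 glycolysis genes 1 rose and 1 fell, and of 26 genes of ATF4 and the unfolded protein response 2 rose and 2 fell. Pdk1, the pyruvate dehydrogenase kinase, went from 16.4 and 18.2 RPKM to 6.56 and 8.24 (-1.10 ± 0.14), and Eno2, an enolase, from 3.35 and 3.40 to 9.28 and 7.01 (1.03 ± 0.17). Of 13 interferon genes 2 rose and 2 fell. In these the Y27 replicates differed. Ifit3 was at 4.75 and 12.2 with Y27 against 2.43 and 2.85 (1.18 ± 0.32, adjusted p = 0.0263), with a change of 0.56 without replicate 2 (adjusted p = 0.0829 by limma). Stat2 was at 16.1 and 7.84 against 4.76 and 4.48 (1.13 ± 0.24). Without one or the other replicate of YAP2S OHT neither gene passed (0.0518 to 0.151).

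**Figure D4:**
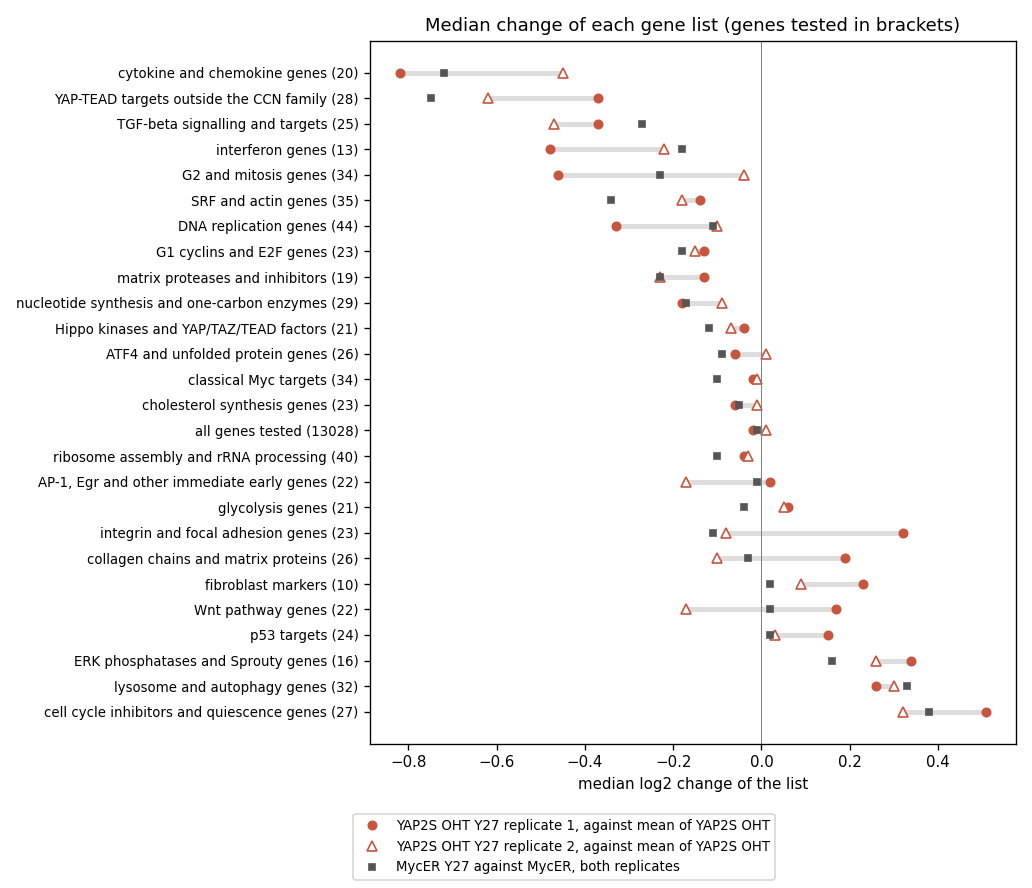
Median log2 change (horizontal axis) of the gene lists described here with 10 or more genes tested, for replicate 1 (filled circles) and replicate 2 (open triangles) of YAP2S OHT Y27 against the mean of YAP2S OHT, and for MycER Y27 against MycER (squares). YAP-TEAD targets lie at -0.37 and -0.62 in the replicates and quiescence genes at 0.51 and 0.32, while genes of G2 and mitosis lie at -0.46 and -0.04.

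Most markers of the labelled cell type were present, and 2 of the 12 fibroblast markers were under 1 RPKM in all 4 libraries. The 12 fibroblast markers summed to 581 and 658 RPKM in YAP2S OHT and to 755 and 654 with Y27, and of 10 tested 3 rose and 1 fell. Among markers of other types, some of macrophages (Emr1, Itgam, Ptprc), endothelium (Cdh5, Kdr), epithelium (Epcam), muscle (Myod1, Myog) and glia (Gfap) were under 0.1 RPKM in all 4 libraries. Other members of these lists were expressed. Those under 1 RPKM in all 4 were 5 of 9 macrophage, 7 of 8 endothelial, 6 of 8 epithelial, 7 of 8 muscle and 4 of 8 neural markers. Cd68, a macrophage marker, was at 10.7 and 7.77 without Y27 and at 3.81 and 6.23 with it. The 8 epithelial markers summed to 74.3 and 80.7 without Y27 and to 35.4 and 47.5 with it. Nearly all of this was Krt19, a keratin, which fell from 73.1 and 79.8 to 34.4 and 46.8 (-0.94 ± 0.12). The macrophage markers summed to 29.7 and 22.7 without Y27 and to 44.8 and 53.3 with it, mostly through Cd14, a lipopolysaccharide co-receptor, from 16.8 and 12.4 to 38.9 and 44.9 (1.49 ± 0.18). The part of these shifts in other results was not tested. Endothelial markers summed to 2.17 to 2.96 over the 4 libraries, muscle markers to 4.28 to 7.36, adipocyte markers to 10.1 to 12.7 and neural markers, through Tubb3 and Nes, to 94.4 to 122. Of 5 macrophage markers tested 1 rose and 1 fell, of 4 neural markers 1 fell, of 4 adipocyte markers 0 changed, and the 1 muscle marker tested, Acta1, fell by 0.57, with an adjusted p of 0.0447 that was 0.095 as deposited and 0.152 to 0.20 with 1 library left out where it did not pass. In bulk RNA fewer cells of a type and less RNA per cell cannot be told apart.

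MycER Y27 against MycER has the same contrast of Y27 and shares no library with the comparison above. By label neither of its groups was given OHT, while both groups of the comparison above were. In the MycER pair 2323 of 13028 genes (17.8%) changed, 1201 higher (9.22%) and 1122 lower (8.61%). Of the genes called in either, 1319 were called in both, which is 56.2% of the first set and 56.8% of the second. Of these, 651 were higher in both, 665 lower in both and 3 opposite. Among the 2348 genes called in YAP2S OHT Y27 against YAP2S OHT, 96.6% had the same sign in the MycER pair, against 69.5% of all genes tested. Across all genes the log2 changes had a correlation of 0.65, as a description, since genes are not independent. It was 0.49 with replicate 1 of YAP2S OHT Y27 alone and 0.73 with replicate 2. In the 402 genes changed by more than 1, the median ratio of the MycER change to the one above was 0.83.

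The leading genes had the same sign in both pairs, though the size was not alike in all. Zfp703 rose by 0.64 in the MycER pair (adjusted p = 0.262 by limma) and by 1.88 in the YAP2S OHT pair. Tnfrsf22 rose by 1.3 and 2.61, and Tnfrsf23 by 1.22 and 2.19. Rgcc (3.71 and 1.96) and Fam180a (3.32 and 2.77) were among those that rose more in the MycER pair. Ctgf was at 171 and 139 RPKM in MycER and at 11.3 and 14.0 in MycER Y27 (-3.01), against the change of -2.83 above. Epha4 changed by -3.27 in the MycER pair and -3.53 in the YAP2S OHT pair, Edn1 by -3.59 and -3.39, and Grem1 by 2.91 and 3.58. Of 28 YAP-TEAD targets outside the CCN family 15 fell and 1 rose in the MycER pair (median -0.75), against 14 and 2. Lysosome genes rose in 16 of 32 in both, and quiescence genes in 12 of 27 against 14.

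The difference between the 2 responses was tested gene by gene. The pairs differ both in the population label and in OHT, and the parts of these cannot be told apart in it. No gene passed (0.0%), in limma with the threshold of 0.05, while 1357 genes (10.4%) had an unadjusted p under 0.05 and voom on recovered reads called 1. The smallest adjusted p was 0.104 over all genes and 0.159 for Rgcc among those the text names. Rgcc was at 0.620 and 1.08 RPKM in MycER and at 29.6 and 23.7 in MycER Y27, a rise of 3.71 against 1.96 in the YAP2S OHT pair (difference -1.75 ± 0.26). The levels with Y27 overlapped, and those without Y27 did not, being higher at 5.65 and 5.79 in YAP2S OHT. Wisp2, of the CCN family, fell by 0.53 in the MycER pair and by 1.14 in the other (difference -0.61 ± 0.10, adjusted p = 0.163). Dusp2 was at 0 and 0 in MycER, 0.197 and 0.121 in MycER Y27, and at 4.62 and 4.59 in YAP2S OHT. Its difference (-1.41) did not pass (adjusted p = 0.301 by limma). Replicate 1 of MycER, used in each of these differences, was the shallowest library, with 1 read per kilobase at 0.567 RPKM. Ctps fell by 1.06 and 0.54 (difference 0.52, adjusted p = 0.301).

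This count rested on single libraries. Without replicate 2 of YAP2S OHT Y27, 2790 genes passed, 1314 higher and 1476 lower, and without replicate 2 of MycER 162 did. Without replicate 1 of YAP2S OHT it was 1, and without replicate 1 of YAP2S OHT Y27 it was 0. The fit without replicate 2 of MycER leaves that group with replicate 1 alone, the shallowest library. An absence of calls at this number of libraries does not show that the responses are the same.

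**Figure D5:**
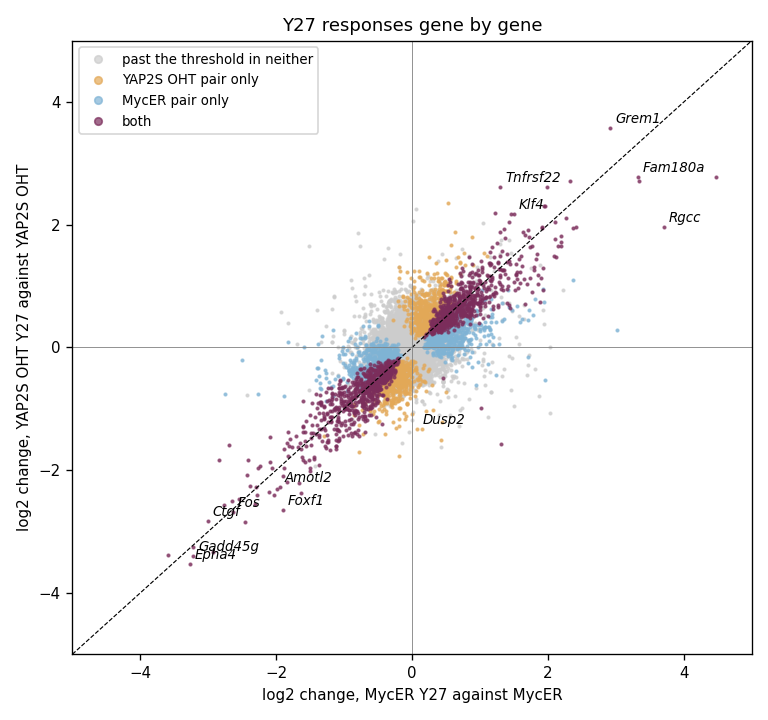
Log2 change of each of 13028 genes in YAP2S OHT Y27 against YAP2S OHT (vertical axis) and in MycER Y27 against MycER (horizontal axis), with genes called in both in purple and the line of equal change dashed. Of the 1319 genes called in both, 1316 lie in the quadrants where the sign is the same, and Rgcc lies below the line at 1.96 against 3.71.

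In the groups that carry the matching labels the values were different. In YAP2S Y27 against YAP2S, 90.9% of the 2348 genes had the same sign, against 65.4% of all genes tested. The median size of their changes was 0.23 there, 0.45 in the MycER pair and 0.62 in the YAP2S OHT pair, in which they were chosen. Genes called in the MycER pair had a median size of 0.61 in it and of 0.43 in the YAP2S OHT pair. Between YAP2S Y27 and YAP2S, Ctgf changed by -0.77, Ankrd1 by -0.47 and Edn1 by -0.43, and Grem1 by 1.96. In MycER OHT Y27 against MycER OHT 19.4% had the same sign, against 36.1% of all genes tested, and Ctgf, Fos and Klf4 changed by 0.45, 1.41 and -2.47. The difference of the responses of YAP2S OHT and MycER OHT to Y27 passed for 4956 genes (38.0%), 2349 higher and 2607 lower (48.1% at an unadjusted p under 0.05), and for 3588 and 1618 on values as deposited. Without 1 library the count ran from 3105 (replicate 2 of YAP2S OHT) to 6787 (replicate 2 of YAP2S OHT Y27), and it was 3192 without replicate 1 of MycER OHT. Since the measured populations go against the labels of these OHT groups, population and treatment cannot be told apart in this difference. Depth differed as well, at 15.71 and 13.49 M reads in MycER OHT and 3.63 and 2.62 M in MycER OHT Y27. The highest RPKM was 118.9 and 131.3 in the former and 391.5 and 532.2 in the latter. The part of depth in these values was not tested.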

How the data were processed

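RNA was taken as total RNA on spin columns, and libraries came from a TruSeq kit without poly(T) selection. The submitters' processing notes name TopHat2 2.0.8, TopHat, SAMtools, featureCounts 1.4.5-p1 and mm9, and the annotation and strand setting are not given in the sources used here. For 21671 genes in 16 libraries the authors deposited RPKM, a unit inferred from the values since no label names it. Reads and depth were recovered from the steps of the RPKM (100.0% of 259376 values within 0.01 read of whole). No gene lengths were used, and the largest step common to the values of a gene was taken as 1 read. GC content is that of the longest transcript of each gene in GENCODE M21.

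Genes at 1 RPKM or more in at least 2 libraries (13028) were set to log2(RPKM + 1), which understates changes of low genes, quantile-normalised, and fitted in limma 3.58.1 under R 4.3.3 with 8 groups, a trend and 8 residual degrees of freedom. Tests were two-sided, with Benjamini-Hochberg adjustment over all genes within each of 4 contrasts. The fit was tested on simulated data. Python 3.11.15, numpy 2.4.6 and pandas 2.3.3 made the tables.

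Named genes are the 15 highest and 15 lowest changes among genes called, averaging 10 RPKM or more, whose groups do not overlap (short RNAs and predicted genes left out), up to 4 members per list with the smallest adjusted p, and a few check genes. Not every gene or list is reported here. The members, the 34 lists and the rule were chosen with earlier results of these data known. A GC correction (lowess, span 0.3) was added after the values were seen. Depth leaves 1 read per kilobase at 0.079 to 0.107 RPKM in the 4 libraries compared, for counting error only.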

Additional observations from a re-analysis of the deposited data

Results flagged for a closer look

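The response to Y27 differed between the libraries labelled YAP2S OHT and those labelled MycER OHT in 4956 genes by the interaction term in limma. Among the check genes the difference (YAP2S OHT response minus MycER OHT response, log2) was 2.10 for Wnt7a, -3.28 for Ctgf, -1.61 for Cyr61, -2.57 for Ankrd1, -1.12 for Esr1 and -0.75 for Mcm5. Wnt7a was at 16.8 and 14.4 RPKM in MycER OHT and at 2.86 and 2.04 in MycER OHT Y27, while it stayed under 0.6 in all 4 libraries labelled YAP2S OHT with or without Y27. Esr1 was at 0.963 and 0.934 RPKM in MycER OHT and at 1.95 and 1.98 with Y27, against 0.902, 1.11, 1.16 and 0.804 in the YAP2S OHT libraries. The groups also differ in measured population and in depth, and the part of either was not tested.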

How the results depend on the processing

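For YAP2S OHT Y27 against YAP2S OHT, 1481 genes were called on values as deposited and 106 with only the libraries of the comparison in the fit, against 2348. Leaving out 1 library gave 789 to 5612. For MycER Y27 against MycER the count was 617 with only its own libraries, 1528 with a log2 change above 0.5 asked as well, and 1260 to 3219 with 1 library left out, against 2323. As deposited 74.9% of its 2327 calls were higher, against 51.7%, with the median of all genes at 0.13. For the difference of these responses, 5 genes passed as deposited and 5 with no filter, 2 with a pseudocount of 0.1, and 1 each with cyclic loess and with voom on recovered reads, and leaving out 1 library gave 0 to 2790, against 0. For the difference from the MycER OHT pair the range with 1 library left out was 3105 to 6787, and as deposited 68.9% of 5206 calls were higher, against 47.4%, with the median of all genes at 0.24. The cause of these shifts was not tested. All other settings left these counts within 1.5 times the main ones.

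For 97 named genes, the values under the alternatives kept direction and side of the threshold in 1235 of 1356 cases. In 114 a call was lost, 49 of these with only the libraries of the comparison, and in 3 one was gained (Bex1 and Yap1 without replicate 2 of YAP2S OHT Y27, Wnt7a with a pseudocount of 0.1). Myc, which was not called, was at 0.01 without replicate 1 of YAP2S OHT and ran from -0.23 to 0.09 with 1 library left out, and Heatr1, also not called, was at -0.01 with voom. Esr1, not called either, ran from -0.21 to 0.01 with 1 library left out. Whether replicate numbers pair the libraries cannot be told from only 2 numbers. The deviations of YAP2S OHT and YAP2S OHT Y27 correlated at 0.15, and those of the MycER pair at 0.18. Between YAP2S OHT Y27 and the other groups the correlation ran from -0.3 (YAP2S Y27) to 0.42 (MycER OHT). With the replicate block 2113 genes were called in the YAP2S OHT pair, 2130 in the MycER pair, 0 for the difference of their responses and 4686 for the difference from the MycER OHT pair. Of the named genes Ccne2 and Acta1 lost their calls under the block. With 2 libraries per group, a gene that was not called was not detected as changed at this depth.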
